A study of Mus musculus with 7 samples.

Results

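A set of 10 genes that mark stromal fibroblasts and mesenchymal cells was followed through every library of the series: Pdgfra, Pdgfrb, Fap, Thy1, Snai2, Twist1, Twist2, Dcn, Lum and Postn. They were chosen by gene symbol, with earlier results of these data known, and they are 10 of the 23282 rows that each deposited table lists. The assay was QuantSeq, a method that sequences only the 3′ ends of messenger RNAs, and it was run on 7 libraries of whole mouse uterus. The animals were C57BL/6 females of 6 weeks of age. One uterine horn received 100 ng of recombinant human CXCL12, a chemokine that the embryo and the endometrium both secrete, in 30 µl of saline, and the other horn received saline. Tissue was taken 3 or 8 days later, which gave 2 libraries from saline-treated uterus, 2 from CXCL12-treated uterus at Day 3 and 3 at Day 8. For saline no day of collection is labelled, and neither the labels nor the methods say which libraries come from one animal. The p-values therefore measure only the spread between these libraries, which may be partly technical.

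The endometrial stroma is the fibroblast layer beneath the uterine epithelium, and it is the tissue that turns into decidua when an embryo implants. Its cells carry the receptors for platelet-derived growth factors, Pdgfra on fibroblasts and Pdgfrb on fibroblasts and on the pericytes of small vessels. Fap and Thy1 are proteins on the fibroblast surface, and Snai2, Twist1 and Twist2 are transcription factors best known for driving the epithelial-mesenchymal transition (EMT), in which an epithelial cell takes on mesenchymal features. Dcn, Lum and Postn are secreted into the collagen matrix between the cells. In whole tissue, fewer cells of a type and less RNA per cell cannot be told apart.

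The 6 libraries with counts held between 6908790 and 12308982 counts, and Day 3 replicate 1, deposited as log2 of normalised counts, corresponds to an estimated 10434540 reads. Levels are given as CPM, each gene's share of the library's counts scaled by the trimmed mean of M values (TMM). Before that scaling, 3 counts stood for between 0.244 and 0.434 CPM. One library, Day 8 replicate 1, is Day 8 by its label but has Day 3 in its table's name; the label was followed, and results that rest on it are given with and without it. That library also had the highest share of the ribosomal precursor Rn45s, at 13.0% against 9.36% to 10.4% in the other 6, and the part of this in its values was not tested. All 10 genes were detected in all 7 libraries, with the lowest count, 34, for Fap in Day 8 replicate 1. Of 10 regulators known from uterine stroma, 9 were detected in every library and 1, Ptch1, named for this, had 0 counts in Day 3 replicate 2. Named here as textbook markers, outside the rule for named genes, Hoxa10 lay between 82.8 and 286 CPM, Esr1 between 230.3 and 366 CPM and Pgr between 185 and 728 CPM.

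The stretch of 250 bases before the transcription start was read for the 4 genes that matched an entry of the RefSeq promoter table (build GRCm38.p6). It describes these 4 starts alone. Both strands were searched for the E-box CANNTG, the core to which Snai2, Twist1 and Twist2 bind, and for the TATA box TATAAA, and no match of one overlapped a match of the other. Capitals mark the matches, and all 4 sequences are on the plus strand and run 5′ to 3′. The Postn stretch at chr3:54360857-54361106 ends 2 bases from the GENCODE start of the gene, and a second Postn entry farther upstream held neither motif.
Postn: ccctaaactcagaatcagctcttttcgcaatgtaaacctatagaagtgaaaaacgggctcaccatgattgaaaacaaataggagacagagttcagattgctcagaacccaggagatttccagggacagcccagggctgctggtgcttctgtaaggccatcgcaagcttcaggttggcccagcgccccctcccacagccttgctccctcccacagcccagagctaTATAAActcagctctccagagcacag
Pdgfra: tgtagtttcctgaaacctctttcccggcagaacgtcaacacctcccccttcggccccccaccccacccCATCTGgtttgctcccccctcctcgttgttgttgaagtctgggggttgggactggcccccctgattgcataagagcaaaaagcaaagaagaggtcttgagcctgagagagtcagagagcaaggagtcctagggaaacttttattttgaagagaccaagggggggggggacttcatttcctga
Twist1: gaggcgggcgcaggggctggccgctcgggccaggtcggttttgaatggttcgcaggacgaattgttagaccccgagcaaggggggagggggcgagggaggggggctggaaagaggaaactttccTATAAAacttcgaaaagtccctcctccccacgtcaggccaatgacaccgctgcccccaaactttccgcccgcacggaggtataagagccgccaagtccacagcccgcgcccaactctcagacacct
Twist2: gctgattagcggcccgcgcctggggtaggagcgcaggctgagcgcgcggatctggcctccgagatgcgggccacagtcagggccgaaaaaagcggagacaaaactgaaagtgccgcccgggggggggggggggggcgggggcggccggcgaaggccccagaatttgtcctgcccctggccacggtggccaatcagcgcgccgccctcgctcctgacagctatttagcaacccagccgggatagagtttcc
Postn held TATAAA with its first base 26 bases before the start and no E-box. Pdgfra, at chr5:75152001-75152250, held 1 E-box, CATCTG, at 182 bases before the end of the stretch. Twist1, at chr12:33957421-33957670, held TATAAA at 126 bases before the start, and Twist2, at chr1:91801211-91801460, held neither. Of 32851 promoter entries of the same length, 66.2% held CANNTG and 12.4% held TATAAA or its reverse complement. A match here describes the letters and is not a binding site.

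Across the whole set, none of the 10 genes met the unadjusted rule, a change of at least 2-fold and P below 0.05, in any of the 3 comparisons. Against saline at Day 8, edgeR's quasi-likelihood test called 0 of 10, where it called 2.94% of the 15388 genes tested (1.53% higher and 1.42% lower). Against saline at Day 3, limma called 0 of 10, where it called 4.66% of 14876 genes (1.98% higher and 2.68% lower), and between the days it called 0 of 10 against 4.58% (2.23% higher and 2.35% lower). The counts at an unadjusted P of 0.05 without a fold limit were also 0 of 10 in each, against 656, 1117 and 1055 genes of the whole tables. At a Benjamini-Hochberg adjusted p of 0.1, 0 genes of the whole tables passed in edgeR or limma, and DESeq2 called 49 at Day 8, with 0 of the 10 among the genes it called by the unadjusted rule. The median log2 fold change of the 10 was 0.48 at Day 8 and 0.20 at Day 3, beside -0.01 and 0.01 over all genes tested. These medians are on different scales: edgeR with estimated counts on all 7 libraries gave 0.48 and 0.36, and limma on quantile-normalised values gave 0.33 at Day 8. Without saline replicate 2 the Day 3 median turned to -0.067. These comparisons use the same saline-treated libraries, so their values stand side by side and do not support each other.

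**Figure D1:**
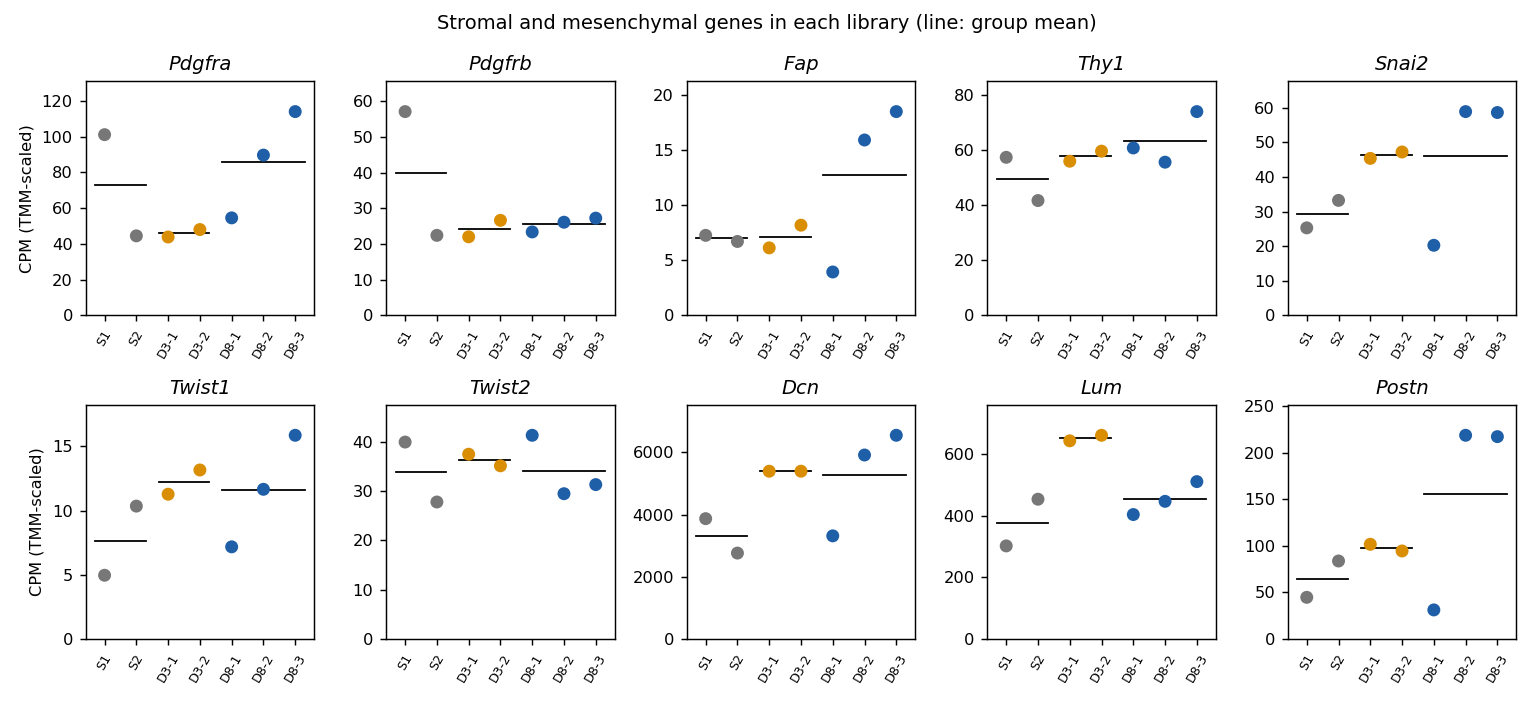
Level of each of the 10 genes, in TMM-scaled CPM on axes that start at 0, in each library (S, saline; D3, CXCL12 Day 3; D8, CXCL12 Day 8; the last digit is the replicate), with a line at each group mean. Day 8 replicates 2 and 3 stand above the other 5 libraries for Fap, Snai2, Dcn and Postn, while Pdgfrb is between 22.0 and 27.2 CPM in 6 libraries and at 57.1 CPM in saline replicate 1.

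The receptor Pdgfra, the tyrosine kinase that marks fibroblasts of most organs (chr5:75152292-75198215, plus strand, GRCm38), was at 101 and 44.5 CPM in the saline-treated libraries, 43.8 and 48.0 CPM at Day 3, and 54.5, 89.6 and 114 CPM at Day 8. Saline replicate 1 stood with the upper Day 8 libraries and saline replicate 2 with Day 3, so saline overlapped both treated groups, while every Day 8 library was above both Day 3 libraries. The group means were 72.8 ± 40.0 CPM (SD, n = 2) in saline, 45.9 ± 2.94 CPM (SD, n = 2) at Day 3 and 86.0 ± 29.9 CPM (SD, n = 3) at Day 8. Between Day 8 and Day 3 the log2 fold change was 0.95 (SE 0.44), with an adjusted p of 0.697 in limma. Of all genes tested, 13.8% had every Day 8 library above both Day 3 libraries. Against saline the log2 fold change was 0.25 (SE 0.46) at Day 8 in edgeR and -0.66 (SE 0.48) at Day 3 in limma, with adjusted p of 0.962 and 0.653. Without saline replicate 2 these were -0.23 and -1.31, the latter past the fold limit with an unadjusted p of 0.0225 in limma, and without saline replicate 1 they were 0.96 and -0.009. Without Day 8 replicate 1 the Day 8 value was 0.49 (SE 0.44).

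Pdgfrb, the second receptor, lies on chromosome 18. It was at 57.1 and 22.4 CPM in saline, 22.0 and 26.6 CPM at Day 3, and 23.4, 26.1 and 27.2 CPM at Day 8. One library, saline replicate 1, stood at 2.55 times the other saline-treated library, and the remaining 6 libraries fell between 22.0 and 27.2 CPM. That library had the fewest counts, 6908790, and stood apart over all 14876 genes too. Its mean absolute log2 differences from the others were 0.776 to 0.885 on quantile-normalised values, against at most 0.748 for pairs without it. Against saline, Pdgfrb differed by a log2 fold change of -0.63 (SE 0.41) at Day 8 and -0.59 (SE 0.44) at Day 3, with adjusted p of 0.956 in edgeR and 0.66 in limma. Without saline replicate 1 it turned to 0.19 at Day 8 and 0.13 at Day 3. Without saline replicate 2 it was -1.15 at Day 8 (unadjusted p = 0.00599 in edgeR) and -1.32 at Day 3 (unadjusted p = 0.00222 in limma), past the fold limit in both, and the Benjamini-Hochberg adjusted p of the Day 3 value was 0.0378 in a limma fit with 1 saline-treated library in which 1955 genes passed the adjusted rule. Among gaps between libraries of one group, the widest was thus in saline for both PDGF receptors. For Pdgfra it was 2.27 times in saline and 2.09 times at Day 8, and the highest of all libraries was 2.60 times the lowest.

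The ligands of these receptors did not separate the groups as a family. Of the 4 ligand genes, 0 were called at Day 8, where 2.94% of all genes tested were. At Day 3 limma called Pdgfd, whose product binds Pdgfrb, on the higher side, where it called 1.98% of all genes tested. Pdgfd was at 0 and 0.575 CPM in saline, 2.13 and 2.59 CPM at Day 3 and between 0.347 and 0.903 CPM at Day 8. Both Day 3 libraries were above the others. Pdgfd had 0 and 6 counts in saline, an estimated 19.8 and a counted 25 at Day 3, and 3, 11 and 7 at Day 8. Its log2 difference was 3.46 (SE 0.93), with an unadjusted p of 0.00575 and an adjusted p of 0.617 in limma, and since 1 saline-treated library was at 0, its size depends on the pseudocount. Pdgfa, a Pdgfra ligand, was at 35.0 and 33.5 CPM in saline, 29.2 and 27.4 CPM at Day 3, and 43.2, 34.6 and 56.4 CPM at Day 8. Its Day 8 libraries lay above both Day 3 libraries, as those of Pdgfra did, by a log2 difference of 0.67 (SE 0.27), under the fold limit, with an adjusted p of 0.696 in limma. Pdgfc, also a Pdgfra ligand, ran from 14.8 to 40.8 CPM with both extremes in saline. Pdgfb, which binds both receptors, ran from 1.21 to 12.0 CPM with its lowest value in saline replicate 1.

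Among the surface proteins, Fap, a serine protease that activated fibroblasts carry (chr2:62500943-62574075, minus strand), had between 34 and 194 counts. It was at 7.26 and 6.71 CPM in saline, 6.13 and 8.19 CPM at Day 3, and 3.93, 15.9 and 18.5 CPM at Day 8. Day 8 replicates 2 and 3 were the highest of all libraries and Day 8 replicate 1 the lowest, so the group held both ends of the range. The log2 fold change at Day 8 was 0.88 (SE 0.64), with an adjusted p of 0.956 in edgeR. Without Day 8 replicate 1 it was 1.30 (SE 0.34), past the unadjusted rule with an unadjusted p of 0.00855 and an adjusted p of 0.389. At Day 3 the log2 difference was 0.05 (SE 0.66), with an adjusted p of 0.98 in limma, and it was -0.030 on TMM-scaled values.

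Thy1, the glycoprotein CD90 (chr9:44043384-44048579, plus strand), was among the steadiest of the set. It was at 57.2 and 41.6 CPM in saline, 55.8 and 59.5 CPM at Day 3, and 60.6, 55.5 and 73.8 CPM at Day 8. Saline replicate 2 was the lowest library and Day 8 replicate 3 the highest, the other 5 lay between 55.5 and 60.6 CPM, and the groups overlapped. The group means were 49.4 ± 11.1 CPM (SD, n = 2), 57.7 ± 2.57 CPM (SD, n = 2) and 63.3 ± 9.45 CPM (SD, n = 3) in saline, Day 3 and Day 8. Its log2 fold change was 0.36 (SE 0.29) at Day 8 and 0.15 (SE 0.28) at Day 3, with adjusted p of 0.956 in edgeR and 0.857 in limma.

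The EMT factor Snai2, a zinc finger repressor of E-cadherin (chr16:14705852-14709385, plus strand), was at 25.3 and 33.2 CPM in saline, 45.4 and 47.3 CPM at Day 3, and 20.3, 58.9 and 58.7 CPM at Day 8. Both Day 3 libraries and Day 8 replicates 2 and 3 were above both saline-treated libraries, while Day 8 replicate 1 was below them. At Day 8 the log2 fold change was 0.65 (SE 0.49), with an adjusted p of 0.956 in edgeR. Without Day 8 replicate 1 it was 1.01 (SE 0.29), with an unadjusted p of 0.0129 and an adjusted p of 0.43, just past the fold limit. At Day 3 the log2 difference was 0.61 (SE 0.51), with an adjusted p of 0.679 in limma.

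The basic helix-loop-helix factors Twist1 and Twist2, close relatives that repress epithelial genes, did not follow one course. Twist1 (chr12:33957671-33959829, plus strand) was at 4.96 and 10.3 CPM in saline, 11.3 and 13.2 CPM at Day 3, and 7.18, 11.7 and 15.9 CPM at Day 8. Saline replicate 1 was the lowest library, both Day 3 libraries were above both saline-treated libraries, and Day 8 replicate 1 fell between the saline-treated ones. The log2 fold change was 0.59 (SE 0.49) at Day 8 and 0.77 (SE 0.48) at Day 3, with adjusted p of 0.956 in edgeR and 0.62 in limma. Without saline replicate 2 the Day 3 difference was 1.28, with an unadjusted p of 0.0382, and without saline replicate 1 it was 0.27. At Day 8 the same removals gave 1.23 and 0.17, and without Day 8 replicate 1 it was 0.84 (SE 0.46), none of them past an unadjusted P of 0.05 in edgeR.
Twist2 (chr1:91801461-91848028, plus strand) was at 39.9 and 27.8 CPM in saline, 37.5 and 35.1 CPM at Day 3, and 41.3, 29.5 and 31.3 CPM at Day 8. It had the narrowest range of the 10, with the highest library at 1.49 times the lowest, and here Day 8 replicate 1 was the highest. Its log2 fold change was 0.01 (SE 0.31) at Day 8 and 0.06 (SE 0.31) at Day 3, with adjusted p of 0.998 in edgeR and 0.948 in limma, and the sign at Day 8 turned with upper-quartile scaling.

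Postn, or periostin, a secreted protein that binds collagen and integrins (chr3:54361109-54391037, plus strand), had the widest range of the 10, at 7.01 times from the lowest to the highest library. It was at 44.8 and 83.8 CPM in saline, 102 and 94.6 CPM at Day 3, and 31.2, 219 and 217 CPM at Day 8. In counts, the Day 8 libraries held 270, 2667 and 2139 reads and the saline-treated libraries 370 and 875. Both Day 3 libraries lay above both saline-treated libraries, and Day 8 replicates 2 and 3 lay above every other library by more than 2-fold, yet Day 8 replicate 1 was the lowest of all 7. The group means were 64.3 ± 27.6 CPM (SD, n = 2) in saline, 98.2 ± 5.08 CPM (SD, n = 2) at Day 3 and 156 ± 108 CPM (SD, n = 3) at Day 8. In log2 terms the Day 8 fold change was 1.28 (SE 0.78), with an unadjusted p of 0.145 and an adjusted p of 0.956 in edgeR. Without Day 8 replicate 1 it was 1.77 (SE 0.37), with an unadjusted p of 0.00337 and an adjusted p of 0.32.

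Dcn (decorin) and Lum (lumican) encode small leucine-rich proteoglycans that coat collagen fibrils, and their genes are neighbours on chromosome 10. Dcn (chr10:97479609-97518143, plus strand), the most abundant of the 10 in every library, was at 3868 and 2762 CPM in saline, 5393 and 5393 CPM at Day 3, and 3315, 5914 and 6548 CPM at Day 8. Both Day 3 libraries and Day 8 replicates 2 and 3 were above both saline-treated libraries, and Day 8 replicate 1 was between these. The log2 fold change at Day 8 was 0.67 (SE 0.39), with an adjusted p of 0.956 in edgeR, and it turned to -0.027 on quantile-normalised values in limma. Without Day 8 replicate 1 it was 0.91 (SE 0.26), under the fold limit, with an unadjusted p of 0.0128 and an adjusted p of 0.43 in edgeR. At Day 3 the log2 difference was 0.25 (SE 0.42) on quantile-normalised values, with an adjusted p of 0.834 in limma, and 0.67 on TMM-scaled values. Quantile normalisation sets a gene by its rank in the library, and there saline replicate 1, at 15.66, stood above the Day 3 libraries at 15.55 and 15.61.

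Lum (chr10:97565128-97572703, plus strand) did not share the Day 8 levels of its neighbour. It was at 302 and 454 CPM in saline, 643 and 661 CPM at Day 3, and 404, 447 and 511 CPM at Day 8. The Day 3 libraries were the highest of the series, above every saline-treated and every Day 8 library, and Day 8 overlapped saline. Of all genes tested, 26.7% had both Day 3 libraries above both saline-treated ones, and 18.8% had every Day 8 library below both Day 3 libraries. The log2 difference at Day 3 was 0.46 (SE 0.25), with an unadjusted p of 0.0985 and an adjusted p of 0.617 in limma, the smallest unadjusted p of the 10 in that comparison. On TMM-scaled values it was 0.76 (unadjusted p = 0.0209, adjusted p = 0.545 in limma), and with estimated counts in edgeR 0.74 (unadjusted p = 0.0293, adjusted p = 0.584), both under the fold limit. From Day 3 to Day 8 it was -0.40 (SE 0.23), with an adjusted p of 0.725.

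**Figure D2:**
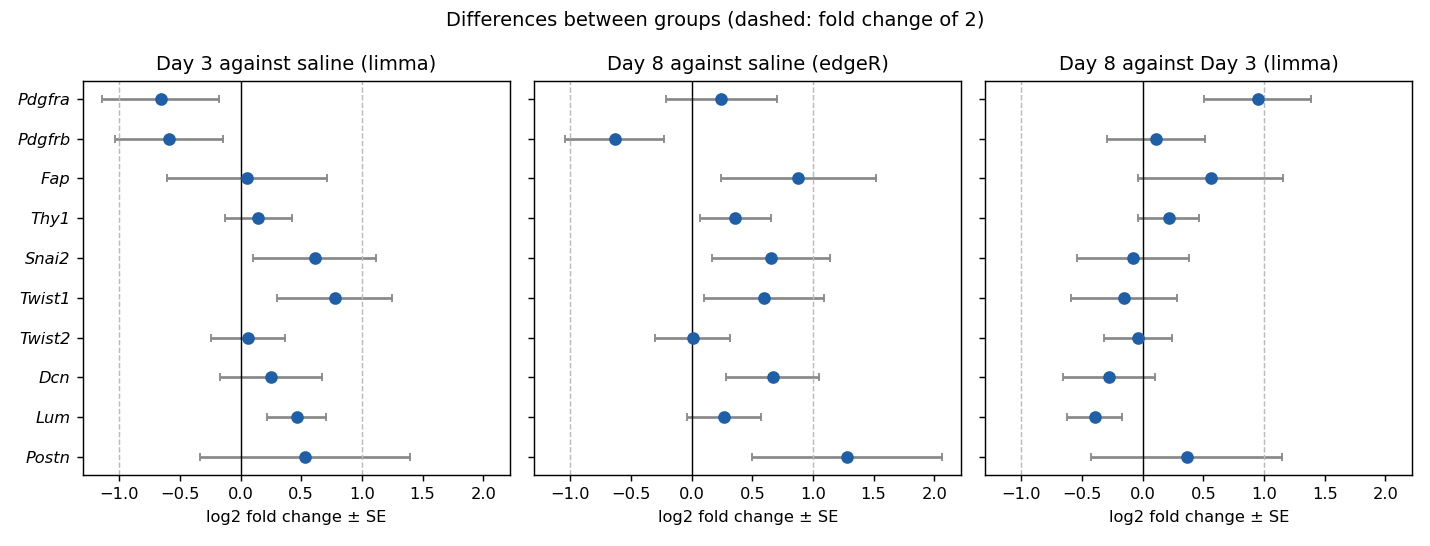
Log2 fold change of each of the 10 genes with its standard error in the 3 comparisons (limma on quantile-normalised log2 values for both with Day 3, edgeR on counts for Day 8 against saline), with dashed lines at a fold change of 2. Postn at Day 8, at 1.28, is the only point beyond a dashed line, and its error bar reaches back across it.

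Set side by side, the 2 Day 3 libraries were nearly equal over these genes. Their mean absolute log2 difference on quantile-normalised values was 0.18, against 0.34 over all 14876 genes. By CPM, both lay above both saline-treated libraries for 5 of the 10, namely Snai2, Twist1, Dcn, Lum and Postn, beside the 26.7% of all genes given above, and none of the 10 had both below, as 21.7% of all genes did. On quantile-normalised values Dcn was not among them, since saline replicate 1 stood above both Day 3 libraries. The Day 8 group was not as even, since its replicates 2 and 3 differed by a mean of 0.21 on the log2 scale over the 10 genes, while replicate 1 differed from them by 0.96 and 1.12, more than over all genes (0.75 and 0.74). Postn was 7.01 and 6.96 times higher in replicates 2 and 3 than in replicate 1, Fap 4.05 and 4.70 times, and Snai2 2.91 and 2.90 times. Replicates 2 and 3 stood above the other 5 libraries for 4 of 10, against 11.3% of all genes tested, a pattern that was picked after the values were seen. Replicate 1 stood below the 6 other libraries for 3 of 10, Fap, Snai2 and Postn, against 16% of all genes tested, likewise picked afterwards. No gene of the 10 had every Day 8 library above or every one below both saline-treated libraries, where 9.07% and 10.2% of all genes did.

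**Figure D3:**
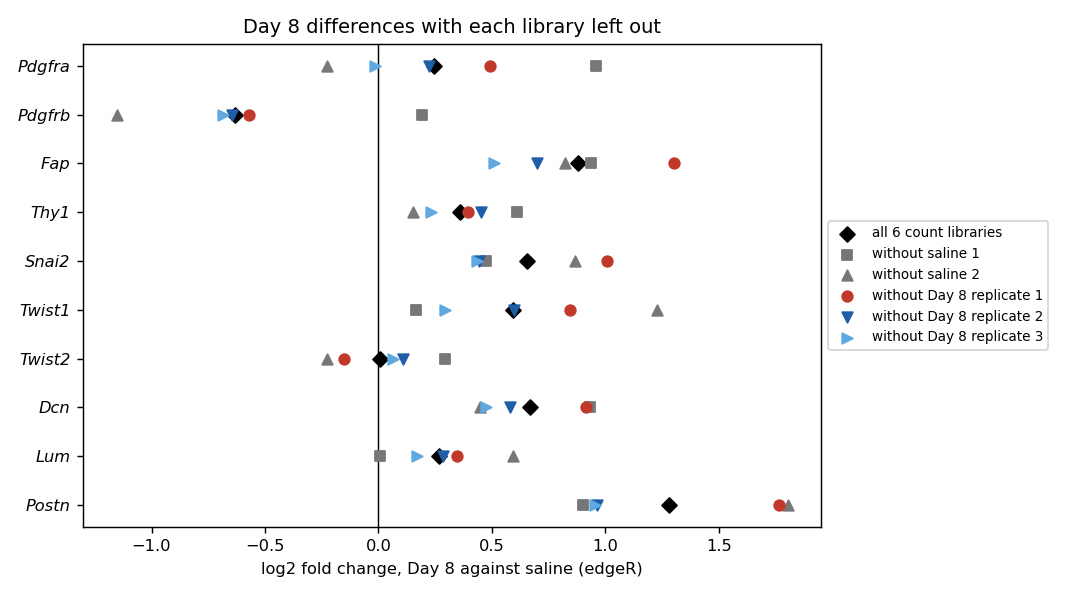
Log2 fold change of each gene between Day 8 and saline (edgeR) with all 6 count libraries and with each saline-treated or Day 8 library left out in turn. Without Day 8 replicate 1, Fap, Snai2 and Postn move to 1.30, 1.01 and 1.77, and Pdgfrb moves from -0.63 to 0.19 without saline replicate 1 and to -1.15 without saline replicate 2.

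With Day 8 replicate 1 left out, 3 of the 10 genes passed the unadjusted rule against saline, namely Snai2, Fap and Postn, with edgeR adjusted p between 0.32 and 0.43. These are the genes for which that library was the lowest, so leaving it out raises their Day 8 mean and narrows the Day 8 spread. Over all genes the count went from 453 of 15388 tested to 1027 of 15359. Between the days, the same removal left 3 past the rule, Fap at 1.21, Postn at 1.29 and Pdgfra at 1.26 on the log2 scale, with unadjusted p of 0.00638, 0.00348 and 0.0199 in limma. There the count over all genes went from 681 of 14876 tested to 1648 of 14791. Counted with Day 3, as its table is named, that library gave 3 of 10 against saline at Day 8, with 1094 of 14689 genes called in all. Between the days this gave 3 of 10, with 1789 of 14876. Of the latter, Fap and Postn had Benjamini-Hochberg adjusted p of 0.061 and 0.072 in limma, in a setting where 1029 genes passed the adjusted rule.

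The other genes of the matrix and of the fibroblast did not move as a body. Of 24 other fibroblast genes, edgeR called 1 higher and 2 lower at Day 8, beside 1.53% and 1.42% of all genes tested. The median log2 fold change of these 24 was 0.06. Loxl1, which crosslinks elastin and had the smallest P of that list, was at 158 and 62.0 CPM in saline, 53.7 and 55.1 CPM at Day 3, and 44.4, 37.3 and 44.2 CPM at Day 8. Every Day 8 library was below both saline-treated ones, with a log2 fold change of -1.39 (SE 0.41) and an adjusted p of 0.956 in edgeR. The others called, chosen here after their values were seen, were Nt5e, the surface enzyme CD73, at 1.74 (SE 0.64), and Mfap4, a microfibril protein, at -1.45 (SE 0.50). Nt5e was at 2.54 and 11.9 CPM in saline and 24.7 and 17.8 CPM in Day 8 replicates 1 and 2, with replicate 3 higher still, so replicate 1 stood there with the rest of its group. Vim, the mesenchymal intermediate filament, also chosen after its values were seen, was at 377 and 771 CPM in saline and 691, 1380 and 1604 CPM at Day 8, where replicate 1 again stood apart, and it did not pass.

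Among 13 matricellular proteins other than Postn, 3 were called lower at Day 8 and 0 higher, beside 1.42% and 1.53% of all genes tested. Thbs1, or thrombospondin 1, an inhibitor of vessel growth, was at 77.5 and 41.3 CPM in saline, 16.5 and 26.4 CPM at Day 3, and 17.5, 17.2 and 17.1 CPM at Day 8. All 5 CXCL12 libraries were below both saline-treated libraries, and the log2 fold change was -1.78 (SE 0.33) at Day 8 and -1.49 (SE 0.39) at Day 3, with adjusted p of 0.956 in edgeR and 0.617 in limma. Thbs2 and Tnc, named after their values were seen, were the other genes called lower, with unadjusted p of 0.00604 and 0.0431 in edgeR. Tnc overlapped saline, at 18.9 CPM in Day 8 replicate 2 against 18.7 CPM in saline replicate 2. Thbs2, a relative of Thbs1, was at 29.5 and 9.87 CPM in saline and between 4.05 and 6.30 CPM at Day 8. At Day 3, limma called 1 of the 13 higher and 3 lower, beside 1.98% and 2.68% of all genes tested. Of the small leucine-rich proteoglycans beside Dcn and Lum, 0 of 9 tested were called at Day 8, with a median of 0.02, and Chad, the one with the smallest P, did not exceed 1.44 CPM in any library. At Day 3, 1 of 8 was called higher, beside 1.98% of all genes tested. It was Ogn or osteoglycin, also named after its values were seen, at 444 and 463 CPM against 137 and 199 CPM in saline. Like Lum, it was higher in both Day 3 libraries than in every Day 8 library, where it was at 94.6, 265 and 233 CPM. Of 10 other EMT factors and partners, 0 were called in any comparison, with a median of -0.17 at Day 8, and Prrx1, a homeobox factor of mesenchyme, had a log2 fold change of -0.69 (SE 0.36).

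Markers of other cell types moved with some of these values, and their part in the results was not tested. All 8 smooth muscle genes had positive log2 fold changes at Day 8, with a median of 0.74. Where 1.53% of all genes tested were called higher, 2 of these 8 were, Actg2, an actin of visceral muscle, among them. Their summed level ran from 2003 to 3128 CPM in saline, from 4179 to 4484 CPM at Day 3 and from 2507 to 5085 CPM at Day 8, and Day 8 replicate 1 was at 2507 CPM. The summed level of 5 mesothelial genes, from 107 to 108 CPM in saline, was 62.4 CPM in that library and up to 170 CPM at Day 8, with 0 of 5 called. Endothelial genes summed to between 157 and 222 CPM in saline and between 147 and 296 CPM at Day 8, and pericyte genes to between 108 and 185 CPM and between 91.0 and 203 CPM, with 0 of 7 and 0 of 6 called. The gene with the smallest P was Emcn in the endothelial list (log2 fold change 0.80, SE 0.27), Abcc9 in the pericyte list (-1.06, SE 0.56) and Msln in the mesothelial list (-0.35, SE 0.36), with adjusted p of 0.956 in edgeR for each. In each of these lists every gene was detected in every library. The summed adipocyte genes ran from 826 to 2498 CPM in saline, from 313 to 3154 CPM at Day 3 and from 242 to 372 CPM at Day 8. Of these genes 7 of 7 were called lower at Day 8, beside 1.42% of all genes tested. Cfd, the adipocyte protease adipsin, had a log2 fold change of -2.27 (SE 0.36). Of the Day 3 libraries, replicate 1 was at 3154 CPM of adipocyte genes and replicate 2 at 313 CPM, and the 10 stromal genes were nearly equal in them. Whether the adipocyte share bears on the stromal values was not tested. Of 8 epithelial genes, 1 was called higher at Day 8, beside 1.53% of all genes tested, namely the claudin Cldn3 at 1.57 (SE 0.54). The epithelial list summed to between 670 and 932 CPM in saline and between 560 and 1107 CPM at Day 8. Of the 10 stroma regulators, 6 nerve genes and 5 T cell genes tested, 0 were called at Day 8 by edgeR, and the genes with the smallest P were Pgr at -0.85 (SE 0.49), Stmn2 at 0.78 (SE 0.59) and Cd4 at -1.48 (SE 1.12). At Day 3 in limma the stroma regulators had a median of -0.80, with 1 positive and 9 negative, beside 0.20 for the 10 stromal genes. Among these regulators 1 was called lower, Ptch1, which had few reads, where 2.68% of all genes tested were. The 7 T cell genes summed to between 8.91 and 19.97 CPM, and 5 of them were detected in every library. Of the 3 decidual genes tested 0 were called at Day 8, with Wnt4 at -0.89 (SE 0.72), and Prl8a2 and Prl3c1, named for being at 0, had no counts in any library.

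**Figure D4:**
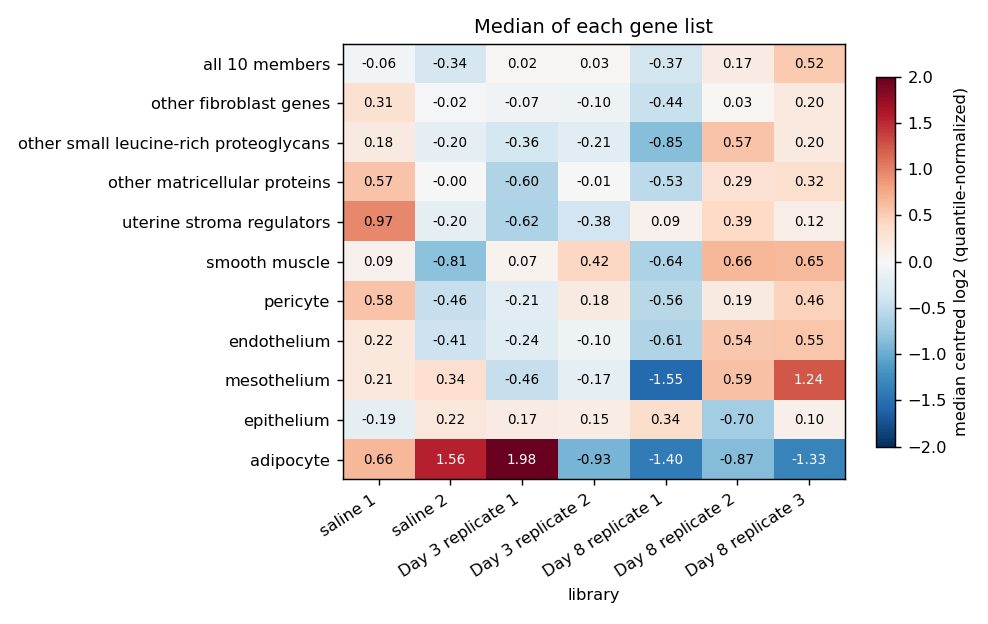
Median over each gene list of the quantile-normalised log2 value, centred on each gene's mean over the 7 libraries, with lists as rows and libraries as columns (red, above the mean; blue, below). The 10 stromal genes are at -0.37 in Day 8 replicate 1 and at 0.17 and 0.52 in replicates 2 and 3, and the mesothelial genes at -1.55, 0.59 and 1.24.

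The genes whose course over the 7 libraries lay nearest to that of Postn were Hid1, Pi15 and Trdn, at mean absolute differences of 0.16, 0.18 and 0.20 of the centred log2 value. Pi15, for example, was at 14.4 and 22.0 CPM in saline, 34.5 and 31.6 CPM at Day 3, and 10.3, 52.6 and 65.5 CPM at Day 8. Nearest to Twist1, the member with the next widest log2 span among those with enough reads, were Hspa1b, Rsu1 and Ctso, at 0.093, 0.099 and 0.10. These are likenesses over 7 libraries that share groups and depths, and no test was made of them.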

How the data were processed

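The 7 libraries were made with the QuantSeq 3′ mRNA kit. The authors aligned reads with Bowtie2 and, for 6 libraries, deposited raw read counts by gene symbol. The table they deposited for Day 3 replicate 1 is in log2 units, of counts already normalized by the authors. Among its 3661 low values, 95.6% lay within 0.1 of a whole read once the log was undone and a factor of 1.0545 applied. That factor was fitted to these same values, and chance gives 20% for a factor fixed beforehand. Counts estimated in this way served for its CPM and for one alternative. The submitters' processing notes name mm10 and hg19 with no role; versions and annotation are not given in the sources used here. All tables share the same 23282 rows, and 35 symbols that stand on more than one row were kept apart.

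Groups and replicate numbers came from the labels. The test of Day 8 against saline was that of edgeR 4.0.16 (quasi-likelihood F test, TMM, filterByExpr, no covariates) on the 6 count libraries in 3 groups. Comparisons with Day 3 used limma 3.58.1 (eBayes with a trend) on log2(value + 1) of values brought to a common library size and then quantile-normalized over the 7 libraries, for genes with at least 1 CPM in at least 2 libraries, a scale that shrinks the changes of genes with low values. A gene was called at a 2-fold change and P below 0.05, unadjusted, or at a 2-fold change and a Benjamini-Hochberg adjusted p of 0.1 over all genes tested. The common biological coefficient of variation was 42.2%, and the range given for 3 counts reflects only the depths of the libraries. The scripts were tested on simulated data.

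The 10 genes, the other gene lists and the tests were chosen with earlier results of these data known. Named beside the 10 were the PDGF ligands, the gene of each other list with the smallest unadjusted P at Day 8 against saline, and the 3 genes nearest in course to each of the 2 widest-ranging genes with a mean of at least 10 CPM; other genes named are marked where they stand. No stretch of 50 bases in the last 300 bases of a member's longest coding transcript (GENCODE M21) was shared with another gene. The RefSeq promoter table matched 4 of the 10. The alternatives were upper-quartile factors, limma on all 7 libraries, DESeq2 1.42.0, edgeR with estimated counts, TMM-scaled log2 values, a pseudocount of 0.1, no filter or a minimum of 10 counts per library, fits of only the groups compared, a replicate block, Day 8 replicate 1 counted with Day 3, and leaving out each library.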

Additional observations from a re-analysis of the deposited data

How the results depend on the processing

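With 2 or 3 libraries a group, the leave-one-out fits moved counts of called genes more than any scaling did. Without one library at a time, Day 8 against saline gave 0 to 3 of the 10 genes past the unadjusted rule, 227 to 1527 genes in all and 0 to 15 past the adjusted one, and log2 fold changes from -0.23 to 0.96 for Pdgfra, -1.15 to 0.19 for Pdgfrb, 0.17 to 1.23 for Twist1 and -0.23 to 0.30 for Twist2. Day 3 against saline gave 0 to 3 and, adjusted, 0 to 1 of the 10, 259 to 2846 and 0 to 1955 genes in all, the most without saline replicate 2, a median of the 10 from -0.067 to 0.27, and differences from -1.32 to 0.13 for Pdgfrb, -0.24 to 0.37 for Twist2, -0.086 to 0.56 for Dcn, -0.16 to 0.27 for Fap and -0.12 to 0.41 for Thy1. Day 8 against Day 3 gave 0 to 3 of the 10, 264 to 1648 and 0 to 453 genes in all, and differences from -0.045 to 0.27 for Pdgfrb, -0.53 to 0.092 for Dcn, -0.41 to 0.13 for Twist1, -0.34 to 0.43 for Snai2, -0.19 to 0.055 for Twist2 and -0.12 to 1.29 for Postn. Where a lone library was left in a group, it was assumed to vary like the others.

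With Day 8 replicate 1 counted with Day 3, 3 of the 10, 1094 genes and, adjusted, 58 genes passed at Day 8 against saline, and Twist2 was at -0.15. At Day 3 against saline, Dcn was at -0.089 and Fap at -0.20. Between the days, 3 of the 10 and, adjusted, 2 of the 10 passed, with 1789 and 1029 genes in all, a median of 0.40 for the 10, and Dcn at 0.43, Twist1 at 0.36 and Snai2 at 0.80.

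Of the scalings and tools, upper-quartile factors put Twist2 at -0.004 and limma put Dcn at -0.027 at Day 8 against saline, and DESeq2 called 49 genes by the adjusted rule. At Day 3 against saline, Fap was at -0.012 with estimated counts in edgeR and at -0.030 with TMM-scaled values, and 35 genes passed the adjusted rule with no filter. Between the days, estimated counts put Dcn at 0.018 and Snai2 at 0.043, and the adjusted rule passed 27 genes with no filter and 3 in a fit of the 2 groups alone. The cause of these moves was not tested. Deviations from the group means correlated at -0.174 and -0.076 for same-numbered saline and Day 8 libraries. With 2 saline-treated libraries these deviations mirror each other, so the correlations cannot decide whether the numbers pair the libraries. The labels do not say which libraries come from one animal, so the replicate block is given here alone. That block left 156 genes called at Day 8 against saline with 0 of the 10, and 424 between the days, with Twist2 at 0.016 and Postn at -0.10.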

Other observations

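Over the 10 stromal genes, saline replicate 2 lay nearer to Day 3 replicate 1 than to the other saline-treated library, at mean absolute log2 differences of 0.22 and 0.74 on quantile-normalised values, beside 0.47 and 0.80 over all 14876 genes. Day 8 replicate 1 was at 0.57 and 0.56 from the saline-treated libraries, at 0.62 and 0.70 from Day 3 replicates 1 and 2, and farther from its own group (0.96 and 1.12), although over all genes it was nearest to the Day 3 libraries (0.51 and 0.51).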
